A study of Mus musculus with 84 samples.

Results

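The serum amyloid A genes Saa1, Saa2, Saa3 and Saa4, the orosomucoid genes Orm1, Orm2 and Orm3, and Lcn2, Hp and Hpx were followed mouse by mouse in liver. These 10 genes were found by symbol among the 17695 genes of the counts table, and all 10 passed the filter of a median count above 8, which 10415 genes passed. Liver RNA of 84 male B6C3F1 mice, 8 weeks old, was measured with TempO-Seq, in which detector oligos that meet on an mRNA are ligated, amplified and counted. Mice ate AIN-93G diet for 7 days, either without an organophosphate pesticide (OPP; Control) or with fenthion (FT) at 2.5, 5, 10 or 20 ppm, methidathion (MT) at 10, 25, 50 or 100 ppm, or parathion (PT) at 20, 40 or 80 ppm. Each of the 12 groups held 7 mice, of which 2 belonged to experimental block 1, 3 to block 3 and 2 to block 4. The study assigned cages of several mice to groups, and cages were not in the sample labels, so p-values measure the spread between mice without regard to cage. RNA came from archived frozen liver and was isolated by the company Expression Analysis (EA; 77 mice) or by the U.S. EPA (7 mice: 2 each in Control, FT 20 ppm and MT 100 ppm, and 1 in MT 10 ppm). A mouse had 6950381 to 15300589 counts in total (median 11581335). The genes were chosen by their differences between PT 80 ppm and Control in these counts, so that contrast is given as a description, without a test.

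Acute phase proteins are secreted by hepatocytes when cytokines such as interleukin 6, interleukin 1 and tumor necrosis factor reach the liver, and their transcription is driven by STAT3, NF-kB and the C/EBP factors. Serum amyloid A 1 and 2 are carried on high-density lipoprotein and are among the most inducible liver transcripts of the mouse. Serum amyloid A 3 is also made outside hepatocytes, for example by macrophages and adipocytes, and serum amyloid A 4 is the constitutive family member. Orosomucoids, or alpha-1-acid glycoproteins, bind drugs and lipids in plasma, lipocalin 2 sequesters bacterial siderophores, haptoglobin captures free hemoglobin and hemopexin captures free heme. OPPs inhibit acetylcholinesterase.

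The serum amyloid A genes are neighbours on chromosome 7 and the orosomucoid genes on chromosome 4. In GRCm39, Saa3 lies at chr7:46361422-46365576 (minus strand), Saa4 at chr7:46377406-46382035 (minus strand), Saa1 at chr7:46389916-46392547 (minus strand) and Saa2 at chr7:46401214-46403737 (plus strand). Orm1 lies at chr4:63261052-63272189, Orm3 at chr4:63274208-63277748 and Orm2 at chr4:63280686-63284115, all on the plus strand. The others are single genes on the minus strand: Lcn2 at chr2:32274645-32278264, Hp at chr8:110301759-110305804 and Hpx at chr7:105240817-105249344. Coding sequences of Saa1 and Saa2 are identical at 95.1% of aligned bases, with a longest identical run of 73 bases. Saa1 shares 74.1% with Saa3 and 64.4% with Saa4. The Orm genes share 86.0% to 89.9% with each other. Sequenced detector oligos are short and the counting can split reads between genes, so the division of counts between Saa1 and Saa2 and among the Orm genes is uncertain, and their sums are given as well.

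The 250 bases before the transcription start are printed for the genes with the widest range between mice, since these genes rose and fell together from mouse to mouse and the windows let their upstream sequence be compared. They are taken from RefSeq (GRCm38.p6), in which 8 of the 10 genes were matched by symbol, all but Orm1 and Hp. Saa1 is chr7:46742981-46743230 (minus strand), Saa2 chr7:46751583-46751832 (plus), Saa3 chr7:46715677-46715926 (minus), Orm2 chr4:63362199-63362448 (plus), Orm3 chr4:63355908-63356157 (plus) and Lcn2 chr2:32387740-32387989 (minus). Each is written 5′ to 3′ toward the start, and capitals mark matches to a C/EBP motif (TTNNGNAA) or a TATA box (TATAAA) on either strand.
Saa1: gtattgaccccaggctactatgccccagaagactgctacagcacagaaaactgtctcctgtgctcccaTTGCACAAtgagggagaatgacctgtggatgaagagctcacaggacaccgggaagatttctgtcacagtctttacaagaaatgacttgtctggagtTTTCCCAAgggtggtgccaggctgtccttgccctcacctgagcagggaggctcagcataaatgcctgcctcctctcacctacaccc
Saa2: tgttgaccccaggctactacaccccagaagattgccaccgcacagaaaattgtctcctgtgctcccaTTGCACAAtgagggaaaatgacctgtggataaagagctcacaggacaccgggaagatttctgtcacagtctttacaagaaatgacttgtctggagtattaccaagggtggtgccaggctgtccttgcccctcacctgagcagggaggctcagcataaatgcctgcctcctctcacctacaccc
Saa3: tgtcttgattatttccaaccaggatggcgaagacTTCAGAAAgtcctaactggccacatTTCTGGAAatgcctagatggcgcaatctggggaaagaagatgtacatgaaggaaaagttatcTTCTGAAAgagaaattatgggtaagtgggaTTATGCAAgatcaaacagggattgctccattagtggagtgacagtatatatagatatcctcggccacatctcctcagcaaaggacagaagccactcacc
Orm2: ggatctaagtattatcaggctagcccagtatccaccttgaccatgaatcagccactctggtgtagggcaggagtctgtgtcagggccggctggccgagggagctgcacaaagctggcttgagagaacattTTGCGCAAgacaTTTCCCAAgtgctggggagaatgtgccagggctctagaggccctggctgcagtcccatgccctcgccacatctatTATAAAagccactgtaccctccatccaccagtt
Orm3: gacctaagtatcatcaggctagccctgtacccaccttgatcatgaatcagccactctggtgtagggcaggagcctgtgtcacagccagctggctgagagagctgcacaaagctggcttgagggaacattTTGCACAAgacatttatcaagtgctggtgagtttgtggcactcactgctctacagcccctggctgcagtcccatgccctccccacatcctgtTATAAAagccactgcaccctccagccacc
Lcn2: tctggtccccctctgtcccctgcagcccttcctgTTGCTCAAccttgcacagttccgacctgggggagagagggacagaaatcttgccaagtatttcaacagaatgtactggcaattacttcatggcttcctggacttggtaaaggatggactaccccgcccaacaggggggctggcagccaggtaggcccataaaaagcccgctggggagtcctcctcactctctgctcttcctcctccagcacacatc

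The C/EBP letters occurred in 8 of 8 of these genes' windows (Saa4 and Hpx included), against 36.8% of 32851 RefSeq windows of the same length. TATAAA occurred in 2 of 8, Orm2 and Orm3, against 12.4% of all windows. The letters searched for NF-kB (GGGA, any base, TT, any base, CC) and STAT3 (TTCNNNGAA) occurred in 0 of 8, against 0.98% and 7.02% of all windows. Saa1 and Saa2 carry TTGCACAA at nearly the same distance, beginning 182 and 183 bases before the start, and their windows are identical at 94.8% of aligned bases. The windows of Orm2 and Orm3 are identical at 85.5%, so the 8 windows are not independent of each other. A match says only that these letters are present in the window.

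The part of all liver counts that Saa1 and Saa2 took together varied widely between mice. Their summed level was 14.4 CPM (counts scaled to the mouse's total) in the lowest mouse, 2379 CPM at the median and 109562 CPM in the highest, FT 5 ppm mouse 3, in which they were 11% of all counts. Mice are numbered within a group in the order in which the series lists them. Among the 7 Control mice the sum was 406 CPM at the lowest, 32291 at the median and 67807 at the highest. The highest mouse exceeded the lowest of its group by a factor between 43.3 (MT 100 ppm) and 471 (FT 5 ppm), with 167 in Control and 57.2 in PT 80 ppm. In every group except PT 80 ppm there were mice above 10000 CPM, and in every group except MT 25 ppm there were mice below 1000 CPM.

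**Figure D1:**
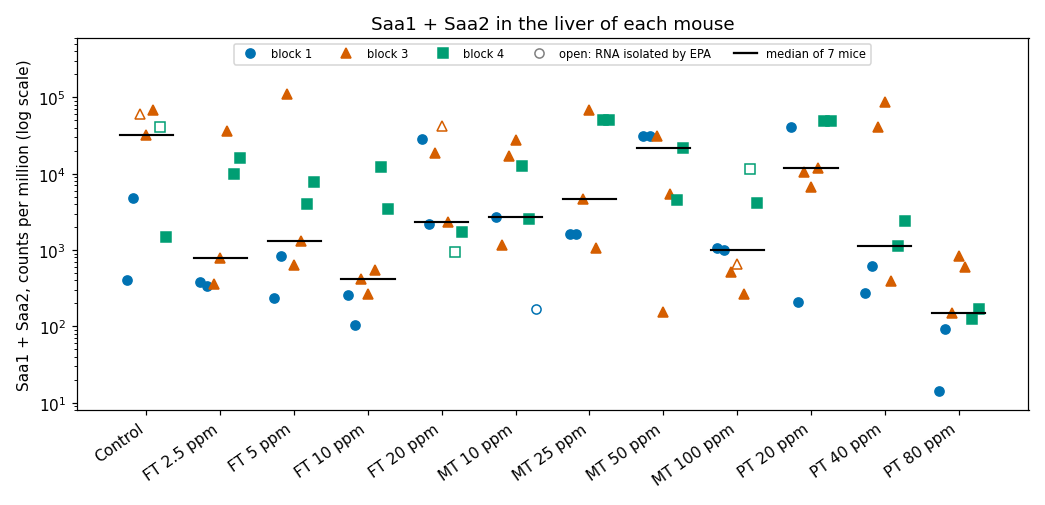
The summed level of Saa1 and Saa2 in CPM on a log axis, 1 point for each of the 84 mice, by group, with blocks by color and shape, open points for RNA isolated by EPA and a bar at the median of 7 mice. All 7 PT 80 ppm mice lie at or below 826 CPM, and each other group spans a range of 43.3-fold or more.

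Ordered by median, the groups ran from Control (32291 CPM) through MT 50 ppm (21952), PT 20 ppm (12038), MT 25 ppm (4606), MT 10 ppm (2667), FT 20 ppm (2346), FT 5 ppm (1323), PT 40 ppm (1115), MT 100 ppm (1002), FT 2.5 ppm (784) and FT 10 ppm (419) to PT 80 ppm (151). The ranges of neighbouring groups in this order overlapped in every case. The order did not follow dose within FT or MT, whereas for PT the medians fell from 20 to 40 to 80 ppm. These medians are a description with no test.

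The PT 80 ppm mice held 14.4 to 826 CPM of Saa1 and Saa2 together, with a median of 151 CPM. Of these 7 mice, 5 lay below the lowest Control mouse (406 CPM), and the other two overlapped the lower end of the Control range. They did not overlap FT 20 ppm (935 to 42284 CPM) or MT 25 ppm (1051 to 68394 CPM). The PT 80 ppm mice served to choose the genes, so this is a description, and the share of all genes without such overlap was not computed. In the edgeR fit the sum was lower in PT 80 ppm than in Control by a log2 fold change of -6.59 ± 1.51 (SE, n = 7 mice per group), 96.3-fold, and the difference of mean log2 values was -5.2 in block 1, -6.91 in block 3 and -5.75 in block 4.

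A gene was called at an edgeR Benjamini-Hochberg adjusted p under 0.05 and at least 2-fold. PT 80 ppm against Control is the contrast with which the genes were chosen, so that the count of 7 of 10 past these thresholds, all lower, is no test of them and nothing is read from it; 1.67% of the 10415 tested genes were called lower. The log2 fold changes of these 7 genes were -7.41 ± 1.72 for Saa2, -5.99 ± 1.36 for Saa1, -4.48 ± 1.31 for Orm2, -4.41 ± 1.27 for Saa3, -1.74 ± 0.403 for Orm1, -1.65 ± 0.404 for Saa4 and -1.07 ± 0.349 for Hpx. The other 3 genes were Lcn2 (-2.99 ± 1.48), Hp (-0.92 ± 0.431) and Orm3 (-0.29 ± 0.713).

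Saa3, which is also made by macrophages, was measured at 5.17 to 745 CPM in Control (median 95.8) and at 2.39 to 9.07 CPM in PT 80 ppm (median 5.11). The ranges overlapped, with 4 PT 80 ppm mice below every Control mouse. The highest Saa3 level of all, 1662 CPM, was in the MT 25 ppm group, where the median was 10.9 CPM. Saa4, the constitutive gene, stayed between 0.0984 and 4.28 CPM over all 84 mice, with a median of 13 counts per mouse, so its values rest on few counts. It was 0.682 to 3.3 CPM in Control (median 1.52) and 0.264 to 1.12 CPM in PT 80 ppm (median 0.519). Again 4 PT 80 ppm mice lay below all Control mice.

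Orm1 was measured at 471 to 3138 CPM in Control (median 1310) and at 202 to 913 CPM in PT 80 ppm (median 337). Orm2 ranged more widely, from 6.65 to 1143 CPM in Control (median 186) and from 3.85 to 47.1 CPM in PT 80 ppm (median 6.61). For both, 4 PT 80 ppm mice lay below the lowest Control mouse. Orm3 was 0.783 to 14.8 CPM in Control (median 4.01) and 0.606 to 8.83 CPM in PT 80 ppm (median 2.27), so these groups overlapped almost fully. The sum of the Orm genes, to which Orm1 gave most of the counts, was 478 to 4036 CPM in Control and 210 to 965 CPM in PT 80 ppm, a log2 fold change of -1.95 ± 0.485.

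Transcripts of the hemoglobin-, heme- and siderophore-binding proteins were measured as follows. Haptoglobin transcript Hp was 2630 to 12619 CPM in Control (median 6629) and 2380 to 7118 CPM in PT 80 ppm (median 4301). Hemopexin transcript Hpx was 1594 to 5577 CPM in Control (median 3801) and 1228 to 3117 CPM in PT 80 ppm (median 1444). Only 1 PT 80 ppm mouse for Hp, but 4 for Hpx, lay below the lowest Control mouse. Lcn2 was 10.7 to 7230 CPM in Control (median 689) and 7.62 to 410 CPM in PT 80 ppm (median 59.5), and 6 of 7 PT 80 ppm mice lay within the Control range.

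**Figure D2:**
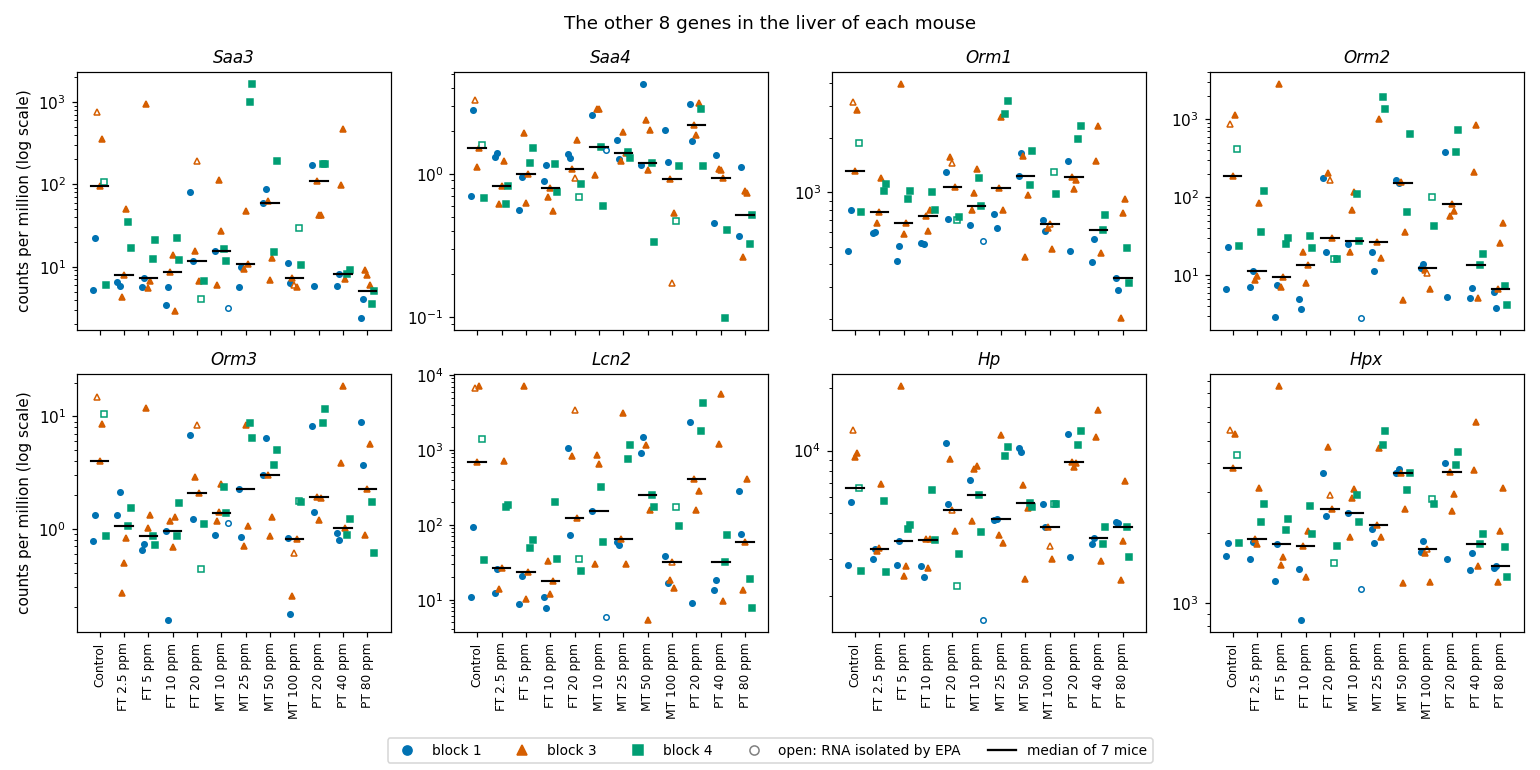
Levels in CPM on log axes of the other 8 genes in each of the 84 mice, by group, with blocks, open points for RNA isolated by EPA and medians of 7 mice drawn as for Saa1 and Saa2. FT 5 ppm mouse 3 is the highest point of its group in Saa3, Saa4, Orm1, Orm2, Orm3, Lcn2, Hp and Hpx, and the PT 80 ppm mice spread from 7.62 to 410 CPM in Lcn2.

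In PT 80 ppm mice the levels of Lcn2, Orm3 and Hp did not follow those of Saa1 and Saa2 as in Control. In PT 80 ppm mouse 1, the mouse with the lowest Saa1 and Saa2 of all 84 (14.4 CPM), Lcn2 was 284 CPM, Orm3 8.83 CPM and Hp 4544 CPM. In mouse 2 the values were 93.5 CPM for Saa1 and Saa2, 74.7 CPM for Lcn2, 3.69 CPM for Orm3 and 4463 CPM for Hp. In mouse 5, which had the highest Hp of its group, they were 599, 410, 5.64 and 7118 CPM. Counts of Saa1 and Saa2 per count of Lcn2 were 0.0508, 1.25 and 1.46 in these 3 mice and 6.52 to 22 in the other 4 of the group, whereas the lowest of the 77 mice in the other groups was 8.97 and their median 29.9. Within the PT 80 ppm group the log2 levels of Lcn2 correlated with those of the Saa1 and Saa2 sum at a Pearson r of -0.09, against 0.97 in Control, those of Orm3 at -0.34 against 0.92 and those of Hp at 0.1 against 0.93. In PT 80 ppm Lcn2 correlated with Orm3 at 0.96 and with Hp at 0.82, each r being over 7 mice of 1 group and given as a description. Block 1 held PT 80 ppm mice 1 and 2, and the difference from Control within block 1 was 2.15 for Lcn2, 1.74 for Orm3 and 0.18 for Hp on the log2 scale, while in blocks 3 and 4 it was -5.5 and -4.05 for Lcn2, -1.4 and -1.14 for Orm3 and -1.4 and -0.2 for Hp. These mice were noticed after their values were seen and the departure was not tested.

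**Figure D3:**
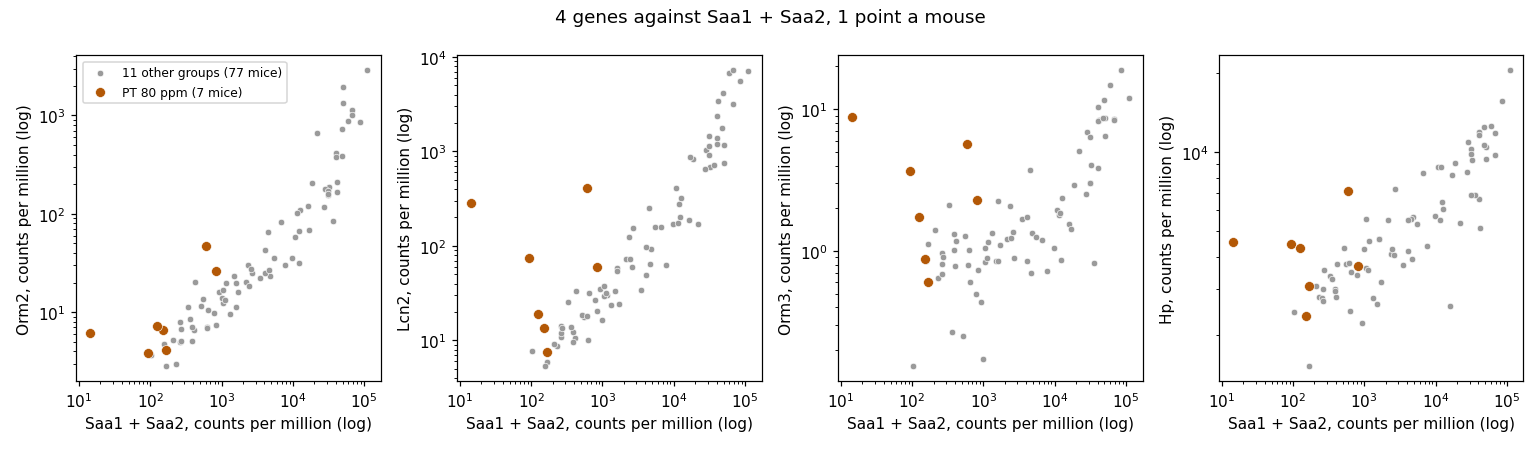
Orm2, Lcn2, Orm3 and Hp against the sum of Saa1 and Saa2, both in CPM on log axes, 1 point a mouse, with the 7 PT 80 ppm mice colored and the 77 others grey. In Lcn2 and Orm3, PT 80 ppm mice 1, 2 and 5 lie above the band of the other mice, with Lcn2 at 284, 74.7 and 410 CPM.

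In the other 10 dosed groups 0 of the 10 genes were called against Control by edgeR, and all these comparisons share the Control mice that served to choose the genes. The share of all tested genes called lower was 0.096% in FT 10 ppm and 0 in each of the other 9, and the share called higher was 0.115% in FT 10 ppm, 0.048% in MT 100 ppm, 0.0096% in MT 50 ppm and in PT 20 ppm, and 0 in the rest. At an unadjusted p under 0.05, all 10 genes were lower in FT 10 ppm (8.82% of all tested genes), 9 of 10 in MT 100 ppm (7.27%), 8 of 10 in FT 2.5 ppm (5.18%), 2 in MT 10 ppm (5.06%), and 1, Saa4, in PT 40 ppm (4.45%). In the other 5 groups 0 of 10 were lower at that level, against 4.02% of tested genes in FT 5 ppm, 1.81% in FT 20 ppm, 3.25% in MT 25 ppm, 1.81% in MT 50 ppm and 2.76% in PT 20 ppm. Counts called by DESeq2 were 3 in FT 10 ppm (Saa3, Orm2 and Lcn2), 1 in MT 100 ppm (Lcn2) and 0 in the other 8 groups, and limma called 0 in all 10. The shares of all tested genes above are those of edgeR and do not apply to DESeq2, so nothing is read from the DESeq2 counts. Orm2 was called in FT 10 ppm in the edgeR fit without Control mouse 2 (-4.61, adjusted p = 0.0484) and in that without FT 5 ppm mouse 3 (-4.59, adjusted p = 0.029). The latter fit was chosen after seeing the data. Without Control mouse 5 the edgeR value of Orm2 was -3.34 (adjusted p = 0.277).

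In FT 10 ppm the largest fitted differences were in Lcn2 (log2 fold change -4.54 ± 1.58, edgeR adjusted p = 0.108) and Orm2 (-4.36 ± 1.32, adjusted p = 0.0664). Saa2 (-3.76 ± 1.58), Saa3 (-3.43 ± 1.22), Saa1 (-3.25 ± 1.29) and Orm3 (-2.07 ± 0.808) followed, and Orm1, Hp, Hpx and Saa4 lay between -1.06 and -0.99. In MT 100 ppm the values were -4.35 ± 1.52 for Lcn2, -3.48 ± 1.47 for Saa2, -3.41 ± 1.19 for Saa3, -3.28 ± 1.23 for Orm2, -2.56 ± 1.18 for Saa1 and -2.49 ± 0.781 for Orm3, with adjusted p between 0.136 and 0.528 over the 10 genes. The median of the 10 genes was -2.66 in FT 10 ppm, -2.52 in MT 100 ppm and -1.68 in FT 2.5 ppm, while the median of all tested genes was within 0.01 of 0 in each. The medians of the remaining groups were -1.46 in MT 10 ppm, -0.59 in PT 40 ppm, -0.51 in FT 5 ppm, -0.5 in FT 20 ppm, -0.18 in MT 50 ppm, -0.03 in MT 25 ppm and 0.35 in PT 20 ppm, and 8 of the 10 genes had a positive value in PT 20 ppm.

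The differences of FT 10 and MT 100 ppm from Control were of unlike size in the 3 blocks. For the sum of Saa1 and Saa2, FT 10 ppm minus Control was -3.09 in block 1, -7.01 in block 3 and -0.27 in block 4, as differences of mean log2 values. For MT 100 ppm these were -0.44, -6.83 and -0.19. In block 3 the 3 Control mice held 32291, 60185 and 67807 CPM and the 3 FT 10 ppm mice 265, 419 and 547 CPM. The MT 100 ppm mice of block 3 held 266, 518 and 649 CPM. In block 4 the Control mice held 1492 and 40961 CPM, the FT 10 ppm mice 3447 and 12167 CPM and the MT 100 ppm mice 4083 and 11531 CPM, so that the dosed mice lay between both Control mice.

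**Figure D4:**
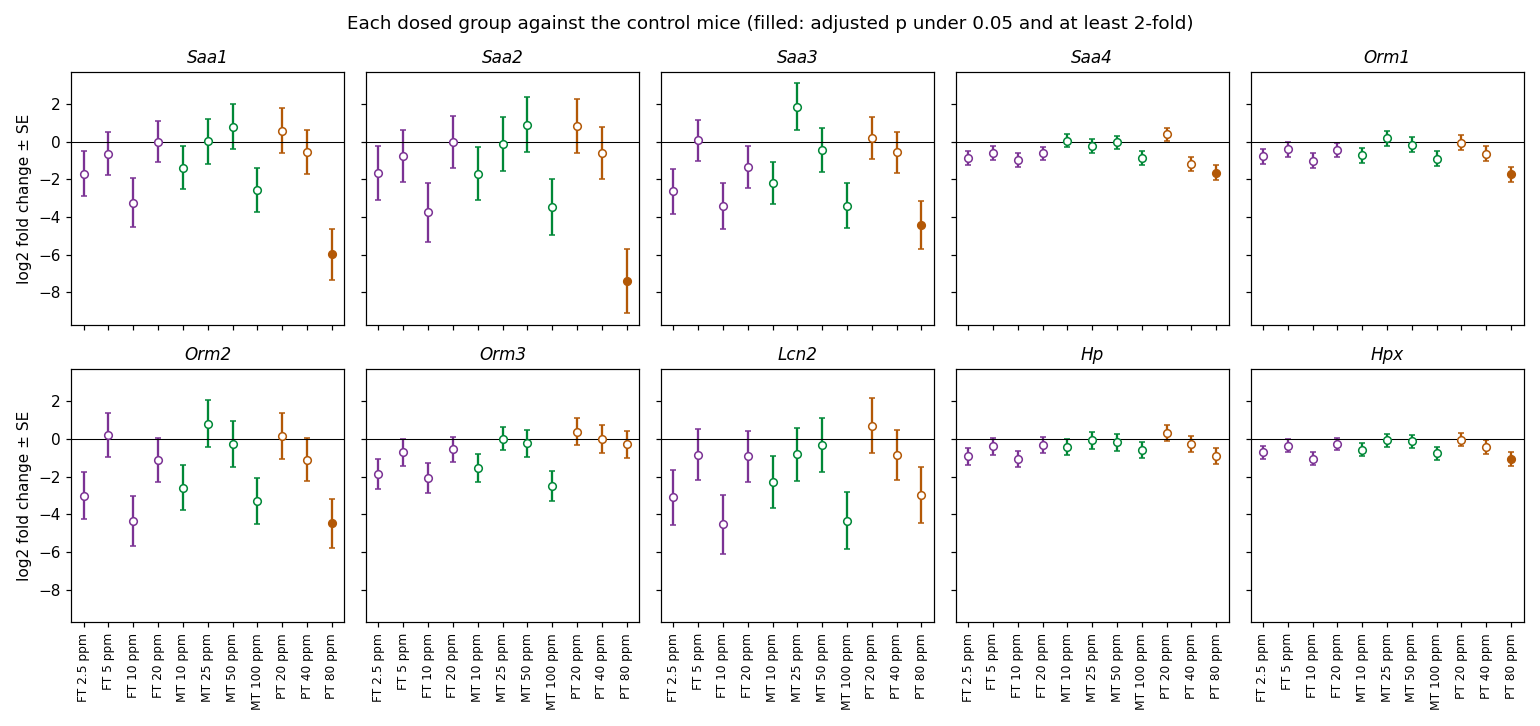
Log2 fold change of each of the 10 genes in each dosed group against the 7 Control mice, from the edgeR fit over all 84 mice, with bars of 1 SE, colored by OPP and filled where the gene was called. Filled points occur in PT 80 ppm alone, in 7 genes. That contrast chose the genes, so its filled points are a description and no test. FT 2.5, FT 10, MT 100 and PT 40 ppm show values below 0 in all 10 genes without a call.

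Comparisons that use neither the Control nor the PT 80 ppm mice as contrasted groups called 0 of the 10 genes by edgeR, and DESeq2 and limma also called 0. The background was 0.0288% of tested genes called higher in MT 100 against 10 ppm and 0 otherwise. At an unadjusted p under 0.05, 0 of the 10 genes passed in FT 20 against 2.5 ppm (4.64% of tested genes were higher at that level), and Saa4 alone passed in the other 4. Saa4 was lower in PT 40 than in PT 20 ppm (-1.58 ± 0.359, 3.31% of tested genes lower at that level), in FT 10 than in MT 10 ppm (-1.03 ± 0.365, 3.49%) and in MT 100 than in MT 10 ppm (-0.9 ± 0.358, 3.56%), and higher in PT 20 than in FT 20 ppm (1.01 ± 0.35, 1.95% higher). None of these passed adjustment over all genes, with edgeR adjusted p of 0.305, 0.568, 0.705 and 0.999. Saa4 was 1.14 to 3.13 CPM in PT 20 ppm (median 2.19) and 0.0984 to 1.35 CPM in PT 40 ppm (median 0.931), which overlap between 1.14 and 1.35 CPM. The lowest PT 20 ppm mouse in Saa4 (1.14 CPM, 15 counts) lay just above the highest PT 80 ppm mouse (1.12 CPM, 14 counts).

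The 3 OPPs differ in structure, FT and MT being dimethyl and PT a diethyl ester, and 2 pairs were fed at the same ppm. For the sum of Saa1 and Saa2, FT 10 ppm minus MT 10 ppm was -1.94 on the log2 scale (95% interval -4.42 to 0.53, edgeR adjusted p = 0.709), and PT 20 ppm minus FT 20 ppm was 0.7 (-1.66 to 3.05, adjusted p = 0.999). For the sum of the Orm genes these differences were -0.32 (-1.2 to 0.57) and 0.5 (-0.41 to 1.41). Both intervals for Saa1 and Saa2 include 0, that of FT 10 against MT 10 ppm reaching far on the side of lower values in FT and that of PT 20 against FT 20 ppm reaching several fold either way, so neither a difference nor likeness between compounds was shown. The 10 genes all had negative values for FT 10 against MT 10 ppm and all positive values for PT 20 against FT 20 ppm.

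The genes also differed between experimental blocks. In block 3 against block 1, over all groups in 1 fit, 5 of the 10 genes were called higher, where 0.374% of the tested genes were called higher (39 genes). By edgeR, Saa2 was higher by 2.66 ± 0.906 on the log2 scale (adjusted p = 0.0147), Saa1 by 2.28 ± 0.708 (adjusted p = 0.00727) and Orm2 by 2.16 ± 0.687 (adjusted p = 0.00861). In the same edgeR fit Lcn2 was higher by 2.05 ± 0.839 (adjusted p = 0.0441) and Saa3 by 1.66 ± 0.652 (adjusted p = 0.0348). By fold these 5 ranked 1, 3, 4, 5 and 13 among the 39 genes called higher. Orm1 (0.83 ± 0.195, adjusted p = 0.000405) and Hpx (0.61 ± 0.169, adjusted p = 0.00252) passed on p but stayed under 2-fold, and Saa4 was -0.13 ± 0.174.

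In block 4 against block 1, 3 of the 10 genes were called higher, against 0.422% of the tested genes. These were Saa2 (2.4 ± 0.937, adjusted p = 0.0358), Saa1 (2.19 ± 0.737, adjusted p = 0.0139) and Orm2 (2.1 ± 0.686, adjusted p = 0.0111) by edgeR. Saa4 differed the other way, by -0.61 ± 0.201 (adjusted p = 0.0124), under 2-fold. Without all Control and PT 80 ppm mice, which had served to choose the genes, 0 of 10 were called for block 3 (Saa1 1.89, adjusted p = 0.0597; Saa2 2.29, adjusted p = 0.0919) and 2 for block 4 (Saa1 2.26, adjusted p = 0.0279; Orm2 2.22, adjusted p = 0.0162). The count for block 3 was 3 without Control mouse 1, 2 or 5 and 3 without FT 5 ppm mouse 3, with the calls of Saa3 and Lcn2 lost each time.

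**Figure D5:**
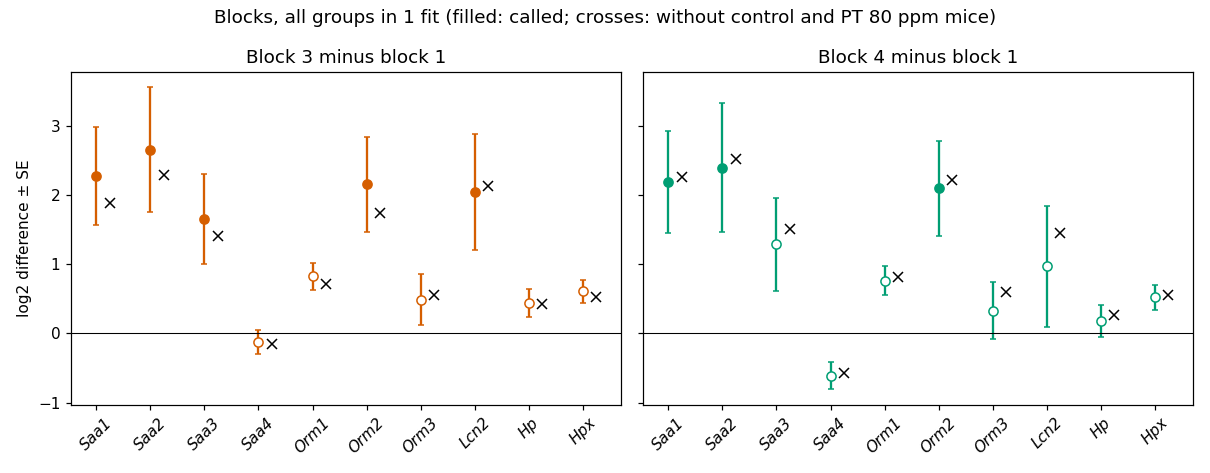
Difference of the 10 genes between blocks on the log2 scale, block 3 minus block 1 on the left and block 4 minus block 1 on the right, with bars of 1 SE, filled points for called genes and crosses for the same fit without the Control and PT 80 ppm mice. The Saa1, Saa2 and Orm2 points lie above 2 in both panels and Saa4 below 0.

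By mouse, the summed Saa1 and Saa2 level had a median of 725 CPM in the 24 mice of block 1, 3476 CPM in the 36 of block 3 and 6075 CPM in the 24 of block 4. Levels above 1000 CPM occurred in 11 of 24, 22 of 36 and 21 of 24 mice. All 3 blocks overlapped, with ranges of 14.4 to 40613, 151 to 109562 and 124 to 51157 CPM. The mean log2 level was higher in block 3 than in block 1 in 10 of 12 groups, with differences from -3.38 in MT 50 ppm to 5.18 in Control. Block 4 was higher than block 1 in 10 of 12 groups. The labels do not say what distinguishes the blocks, and what differed between them was not tested.

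Between the RNA isolators 0 of the 10 genes were called by edgeR, where 1.16% of tested genes were called higher and 0.374% lower in EPA than in EA. At an unadjusted p under 0.05, 0 of 10 were higher or lower, against 23.6% and 23.3% of tested genes, and DESeq2 and limma called 0. The largest difference was in Orm3 (0.84 ± 0.582, adjusted p = 0.26), and that of the Saa1 and Saa2 sum was 0.1 ± 1.1. EPA isolated 7 mice, so the interval of the latter, -2.06 to 2.26, includes differences of over 4-fold either way.

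Mice high in 1 of these genes were high in most of the others, also within a group. After subtracting group means from log2(CPM + 1) values, the sum of Saa1 and Saa2 correlated over the 84 mice at a Pearson r of 0.92 with Orm2, 0.91 with Hpx, 0.9 with Orm1 and with Lcn2, 0.84 with Hp and Saa3, 0.68 with Orm3 and 0.33 with Saa4. These points share the library of each mouse, blocks included, and in blocks 1, 3 and 4 taken alone r with Orm2 was 0.9, 0.93 and 0.85. Saa1 and Saa2 correlated at 0.99, and reads of 1 may have been counted for the other. Saa2 made up 19.1% to 59.3% of the counts of both (median 38.2%), with a larger part in mice with a higher sum (Spearman rho 0.82). Orm2 made up 0.526% to 41.9% of the Orm counts (median 2.79%), and its part also went up with Saa1 and Saa2 (rho 0.91).

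Among all other tested genes, those most like the Saa1 and Saa2 sum by the same within-group correlation over 84 mice were Tmem176a (0.88), Cyb561 (0.87), Lrg1 (0.87), Apcs (0.86) and Itih4 (0.82). Lrg1 encodes leucine-rich alpha-2-glycoprotein, Apcs serum amyloid P and Itih4 an inter-alpha-trypsin inhibitor chain, all plasma proteins made by liver. The genes most like the Orm sum were Tmem176a (0.88), Cyb561 (0.88), Itih4 (0.87), Cp (0.86) and Trf (0.83), and those most like Hp were Apcs (0.86), Tmem176a (0.86), Lbp (0.86), Prg4 (0.83) and Tmem176b (0.81). Cp encodes ceruloplasmin, Trf transferrin and Lbp the lipopolysaccharide-binding protein.

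Other genes of the acute phase were read from 4 lists. Of 28 cytokines, receptors and signalling genes, 23 were tested. In PT 80 ppm 1 was called higher, Cebpd, which encodes C/EBP delta (1.34 ± 0.363 on the log2 scale; 6.37 ± 2.52 CPM in Control and 17.8 ± 20.9 in PT 80 ppm, SD, n = 7), and 0 lower. The list had a median of -0.08, beside 0.01 over all tested genes, and Hnf4a and Nfkbia, not called, had 0.53 ± 0.118 and 0.64 ± 0.198. Of 20 tested among 21 other hepatic acute phase proteins, 3 were called lower, the protease inhibitor A2m (-2.99 ± 0.629), the metalloreductase Steap4 (-1.37 ± 0.357) and Apcs (-1.09 ± 0.383), and 0 higher, with a list median of -0.3. A2m was at 3.19 ± 1.76 CPM in Control and 0.458 ± 0.318 CPM in PT 80 ppm (SD, n = 7), so its values rest on few counts. Not all members of this list were lower. The metallothionein gene Mt1 (0.65 ± 0.488) and the hepcidin gene Hamp (0.54 ± 0.361) had positive values without a call. The metallothionein gene Mt2, also not called, was at 39.3 ± 54.8 CPM in Control and 216 ± 278 CPM in PT 80 ppm (SD, n = 7). In this contrast 1.63% of tested genes were called higher and 1.67% lower. Of 9 genes listed as negative acute phase proteins, a class which the liver makes less of in inflammation, 0 were called and the median was 0.29. Rbp4 had 0.67 ± 0.177, Ahsg 0.31 ± 0.105 and Trf -0.37 ± 0.146. Trf went with the Orm sum from mouse to mouse (0.83), so in these mice it did not behave as its list is named. Among 10 tested of 14 partners and receptors, Tfrc, the transferrin receptor, was called higher (1.12 ± 0.244) and the list median was -0.02. This is again the contrast that chose the genes, and these values are a description.

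In the contrasts that did not choose the genes, the lists held few calls. A2m was called lower in FT 10 ppm (-2.03 ± 0.568, edgeR adjusted p = 0.0481), the only called gene of the 4 lists in the other 10 comparisons with Control. All 10 share the Control mice that served to choose the genes. In FT 10 ppm 0.096% of tested genes were called lower, and A2m averaged only 3.19 CPM in Control. In the 5 comparisons without Control and PT 80 ppm mice 0 were called. Hamp, the iron hormone hepcidin, was called lower in EPA than in EA (-1.46 ± 0.319, edgeR adjusted p = 0.000157), where 0.374% of tested genes were called lower. In block 4 against block 1 the metallothioneins Mt1 (-1.14 ± 0.263, edgeR adjusted p = 0.000343) and Mt2 (-2.06 ± 0.698, adjusted p = 0.0149) were called lower, against 0.394% of tested genes. In block 3 against block 1 the lists held 0 called genes, against 0.374% of tested genes called higher and 0.269% lower.

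Marker genes of liver cell types were read beside these results, since in bulk liver fewer cells of a type and less RNA per cell cannot be told apart. The 7 hepatocyte markers, all tested, summed to 17132 to 34995 CPM in Control (median 20239) and 28065 to 42071 CPM in PT 80 ppm (median 35536), and 0 of 7 were called, with Cyp2e1 just under 2-fold (0.98 ± 0.136). Cyp2e1 made up a large part of this sum, at 9624 ± 2919 CPM in Control and 20541 ± 3408 CPM in PT 80 ppm (mean ± SD, n = 7). Alb and Ttr of this list are also on the list of negative acute phase proteins, so the sum is no plain measure of hepatocyte content. Of 11 Kupffer cell and macrophage markers, of which 9 were tested, the sum was 179 to 366 CPM in Control and 73.5 to 274 CPM in PT 80 ppm, 0 of 9 were called, and Cd5l, Clec4f and Cd68 had -0.87 ± 0.244, -0.8 ± 0.238 and -0.7 ± 0.213. Within groups over 84 mice the log2 sum of these markers correlated with Saa1 and Saa2 at a Pearson r of 0.74, and that of the hepatocyte markers at -0.72. Of 11 neutrophil markers 2 were tested, their sum lay between 1.16 and 21.8 CPM over all mice (r = 0.71), and Mpo, Elane and Ngp had a median of 0. Of 8 lymphocyte markers in the counts, 3 were tested, Cd4 was called lower (-1.25 ± 0.33) and Cd8a and Klrb1c had a median of 0. Cd4 was at 1.31 ± 0.532 CPM in Control and 0.592 ± 0.456 CPM in PT 80 ppm (SD, n = 7), so its values rest on few counts. Spp1, which cholangiocytes and macrophages make, was the 1 tested of 6 cholangiocyte markers and was called lower (-1.11 ± 0.258), with Epcam and Cftr at a median of 0. Of the sinusoidal endothelial (6 of 6 tested), stellate (6 of 7) and adipocyte (1 of 5) markers 0 were called, with sums of 110 to 192, 91.9 to 206 and 7.79 to 69.1 CPM over all mice. The calls and fold changes of these markers are those of PT 80 ppm against Control, the contrast that chose the genes, and are a description. In that contrast 1.63% of tested genes were called higher and 1.67% lower. The part of these markers in the differences of the 10 genes was not tested.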

How the data were processed

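Liver RNA of 84 mice was measured by TempO-Seq. The authors trimmed the reads, aligned them to mm39 and assigned them to transcripts in Partek Flow, and deposited estimated counts per gene, of which 18.7% were not whole; these were rounded. The authors also deposited a score per gene and mouse for 11064 genes, log2(CPM + 1), adjusted by them with a general linear model for block and RNA isolator; it was used only as an alternative and in the closing observations.

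Groups, blocks and isolators were taken from the labels. Counts of 10415 genes (median count above 8) in all 84 mice were fitted in edgeR 4.0.16 (R 4.3.3) with TMM scaling and the quasi-likelihood test, with group, block and isolator as terms, in 19 contrasts. A gene was called at a Benjamini-Hochberg adjusted p under 0.05 over all tested genes and at least 2-fold. Summed genes were tested in a separate fit of the same kind, in which the sums replaced the rows of Saa1 and Saa2 and of the Orm genes. SE is the log2 fold change divided by the square root of F, and 95% intervals are 1.96 SE on either side. DESeq2 1.42.0, limma 3.58.1 on log2(CPM + 1), other filters and covariates and leaving out mice were alternatives. The fits were tested on simulated counts that gave all genes the same dispersion and no block or isolator differences. That simulation does not show how the fits behave for genes that vary as widely between mice as these. A count of 0 allows up to 3 counts, 0.196 to 0.432 CPM by mouse; this covers counting error only. No 2 mice had identical counts. Pandas 2.3.3 and scipy 1.17.1 were used for summaries.

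The 10 genes and their sums are all given. From each list of other genes those named are up to 3 with the lowest p in PT 80 ppm and any called in another contrast, and the 5 most correlated genes are named for each of 3 patterns. Genes, lists and tests were chosen with earlier results of these data known.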

Additional observations from a re-analysis of the deposited data

Results flagged for a closer look

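Of 144 group ranges tested (10 genes and 2 sums in 12 groups of 7 mice), 21 held a mouse farther from the others than Dixon's critical ratio of 0.568 for 7 samples, where chance alone flags about 1 in 20, and 21 flags fell on 6 mice. These flags were read on the log2 scale and are given in CPM.

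FT 5 ppm mouse 3 stood above its group in 8 of them. Its values were 934 for Saa3 (next mouse 20.8), 3984 for Orm1 (1014), 2879 for Orm2 (30.3), 12 for Orm3 (1.33), 7157 for Lcn2 (63.5), 20533 for Hp (4372), 8617 for Hpx (2309) and 6875 for the Orm sum (1045). The other high mice were MT 100 ppm mouse 6 with 29.1 for Saa3 (next 11) and PT 40 ppm mouse 4 with 18.8 for Orm3 (next 3.83).

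MT 50 ppm mouse 4 stood below its group, with 108 for Saa1 (next 2741), 47.6 for Saa2 (1717), 155 for their sum (4457), 438 for Orm1 (963), 5.35 for Lcn2 (158) and 1222 for Hpx (2546). PT 20 ppm mouse 2 was likewise low, with 150 for Saa1 (next 4167), 57.5 for Saa2 (2572), 208 for their sum (6738) and 3084 for Hp (8358). MT 10 ppm mouse 7 had 1529 for Hp (next 4058).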

How the results depend on the processing

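No paired analysis was possible because replicate numbers only name mice in listing order and pair none across groups. Over the alternatives, 454 counts of called genes kept within 1.5 times and 16 did not, and of single values and sums 1485 kept direction and side of the threshold, 44 lost and 13 gained a call, 13 reversed and 5 moved. The number of the 10 genes called in FT 10 ppm against Control, 0, became 3 with DESeq2, 4 without block and isolator terms and 1 without FT 5 ppm mouse 3. It was 0 to 1 when leaving out single Control or PT 80 ppm mice, and no fit left out an FT 10 ppm mouse. In MT 100 ppm it went from 0 to 1 with DESeq2 and to 1 with Control and the MT groups alone. Shares of all tested genes are not given for the alternatives, so these counts describe only how the calls moved. In PT 80 ppm, the contrast that chose the genes, it is a description and went from 7 to 4 with Control and the PT groups alone, to 3 without block 3, and ranged from 5 to 7 over single mice left out. In block 3 against block 1 it went from 5 to 3 with limma, 3 with EA mice alone, 3 without block 4, 3 without FT 5 ppm mouse 3, 0 without the Control and PT 80 ppm mice, and 3 to 5 without single Control or PT 80 ppm mice. Leaving out FT 5 ppm mouse 3 or all Control and PT 80 ppm mice was chosen after seeing the data. The cause was not tested in any of these. Signs reversed with the authors' adjusted values in FT 10 ppm for Saa1 (0.35), Saa2 (0.42), Saa3 (0.11), Saa4 (0.35), Lcn2 (0.22) and Hp (0.56), and in PT 80 ppm for Hp (0.06) and Orm3 (0.21). Orm3 in PT 80 ppm was also 0.12 with EA mice alone, 0.26 with Control and the PT groups alone, 0.71 without block 3 and -0.8 to 0.04 over single mice left out, and Hp in MT 100 ppm was 0.23 without block 3. Saa4 and Orm3, with median counts of 13 and 16, are the members limited by depth.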

Other observations

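The authors' adjusted values placed the 10 genes differently from the counts. The 84 mice form 43 combinations of group, block and isolator, of which 11 hold 1 mouse. In the adjusted values the mean of each combination equalled its group's mean within 0.001 in 430 of 430 cases over the 10 genes, against 0 of 430 for log2(CPM + 1) of the counts, where the median distance was 0.58. The same held for 100% of combination means over all 11064 genes of the adjusted values, so it is no trait of the 10 genes. Control mice 3, 6 and 7, at 14.71, 14.26 and 9.83 for Saa1 on that log2 scale, were each at 18.71 in the adjusted values. These 3 mice shared 1 adjusted value in each of the 11064 genes. Against Control, the adjusted values had the opposite sign to the edgeR fit for 8 of 10 genes in MT 50 ppm, 6 in FT 10 ppm and 5 in MT 25 ppm and in PT 20 ppm. The count was 2 in FT 5, PT 40 and PT 80 ppm, 1 in FT 20 and MT 10 ppm, and 0 in FT 2.5 and MT 100 ppm. The share of all genes with opposite signs was not computed.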
